A study of Rattus norvegicus with 6 samples.

Results

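The expression of 10 stellate cell and fibroblast genes was measured in whole liver by RNA sequencing. These genes were Lrat, Pdgfra, Pdgfrb, Pdgfa, Reln, Hgf, Dcn, Lum, Vim and Smoc2. They were chosen by name from the 30957 genes of the expression table, and all 10 passed the filter on low counts among the 12210 genes tested. The livers came from female Sprague Dawley rats, bought at 3 weeks of age and kept in a specific pathogen-free facility. Recipients of both groups first drank courses of an antibiotic cocktail that depleted their own gut bacteria. They were then gavaged every day for 14 days with faecal microbiota. The donors of the t-PBS group had been injected with PBS, and those of the t-DHEA group with dehydroepiandrosterone (DHEA), an androgen precursor that gives rats features of polycystic ovary syndrome. The recipients were given no DHEA injections themselves. Livers of 3 t-PBS and 3 t-DHEA rats were sequenced, each from a separate rat. The donor pellets were pooled for the gavage and the rats were housed in pairs, so that the rats of a group shared their transplant and may have shared a cage. The study also measured more DHEA sulfate in the faeces of DHEA-injected donors, at levels it put far below those that elicit such features. The comparison asks whether gene expression in the liver differed between the recipient groups.

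Hepatic stellate cells lie between the hepatocytes and the sinusoidal endothelium and store most of the vitamin A of the body as retinyl esters. They are the main pericytes and the main source of fibrillar collagen of the liver, and platelet-derived growth factor (PDGF) and transforming growth factor beta drive them from the quiescent state to a contractile, matrix-secreting myofibroblast. Portal fibroblasts, which surround the bile ducts and portal vessels, form another mesenchymal population with its own matrix genes. The liver surface is covered by mesothelial cells, which share several genes with these fibroblasts. In whole liver, fewer cells of a type and less RNA per cell cannot be told apart.

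Counts on genes summed to between 13031722 and 14316886 per t-PBS liver and between 12348511 and 13529414 per t-DHEA liver. In each liver 3 counts, the upper limit that a count of 0 allows, corresponded to between 0.210 and 0.243 CPM, the count scaled to a common library size. These limits cover counting error only. Where 3 values are given for a group, they are those of rats 1, 2 and 3 in this order. The liver of t-DHEA rat 2 stood apart in its mesothelial markers. Gpm6a, a membrane glycoprotein of mesothelial cells, had 148, 139 and 143 counts in t-PBS against 154, 2 and 206 in t-DHEA. Fits without this liver are therefore also given for several of the genes and lists.

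Besides the 10 genes, 19 other stellate cell markers were read, and all 19 passed the filter on low counts. This does not show which cells made the 10 genes. Ngfr, a neurotrophin receptor, had the fewest counts of the 19 markers, between 1 and 17. The desmin gene Des had between 23 and 43 counts, and Colec11, a collectin, between 927 and 1215. Of the 18 portal fibroblast markers 10 were tested. Thy1, a surface protein that defines portal fibroblasts, had between 1 and 4 counts, and Gli1 had 1 count in all 6 livers together. Both were thus close to the limit of detection, but other members of that list were abundant. Dpt, dermatopontin, had between 4792 and 6438 counts per liver, and Gas6, a ligand of the TAM receptors, between 1333 and 3125. The portal fibroblast list summed to between 649 and 807 CPM in t-PBS and between 689 and 714 CPM in t-DHEA livers. Most of this sum came from Dpt, with means of 417 CPM in t-PBS and 403 CPM in t-DHEA, and from Gas6. The sum thus says little about the other members.

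Levels of different genes were compared by FPKM, which divides by the length of the gene and by the depth of the library. Vim was the most abundant of the 10 genes, with a mean of 19.1 FPKM over the 6 livers and a range from 11.3 to 28.7. Lrat followed with 9.18 FPKM, and its range of 6.92 to 10.3 did not overlap that of Vim. Reln had a mean of 6.10, Hgf of 5.53, Pdgfrb of 4.06, Pdgfra of 3.88 and Dcn of 3.71 FPKM. Smoc2 had a mean of 1.06 FPKM, Lum of 0.753 and Pdgfa of 0.391. Among neighbours in this order, the ranges over the 6 livers were separate for Vim and Lrat, for Hgf and Pdgfrb, and for Dcn and Smoc2, and they overlapped for the other 6 pairs. Smoc2 was above Lum in each of the 6 livers in spite of the overlap, whereas Pdgfrb was above Pdgfra in 3 of 6 livers.

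Of the 10 genes, 4 fell in t-DHEA livers and none rose. The 4 were Vim, Smoc2, Lum and Pdgfra. The criteria were those of the study, p below 0.05 without adjustment and a fold-change above 1.2, with the p taken from the quasi-likelihood test of edgeR and written QL p. Each log2 fold change is t-DHEA over t-PBS and is given with its standard error (SE). By the same criteria 4.95% of all genes tested were called, 2.98% as lower and 1.97% as higher in t-DHEA livers. The median log2 fold change of the 10 genes was -0.14, and 8 of them had a negative value, against a median of 0.0013 and 49.6% negative values over all genes tested. Among these 8, the values of Dcn, Hgf and Reln turned positive in at least 1 fit that left out 1 liver. They reached 0.25, 0.0087 and 0.019. After Benjamini-Hochberg adjustment none of the 12210 genes had a QL p below 0.05 in edgeR, while before it 634 genes did, or 5.19%. At an adjusted p below 0.05, DESeq2 called 24 genes with none of the 10 among them, and the likelihood-ratio test of edgeR called 28 with Smoc2 among them. The calls are therefore unadjusted ones. The count of 4 dropped to 2 with t-PBS rat 2 or t-DHEA rat 3 left out, and it was 5 with t-DHEA rat 2 left out.

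**Figure D1:**
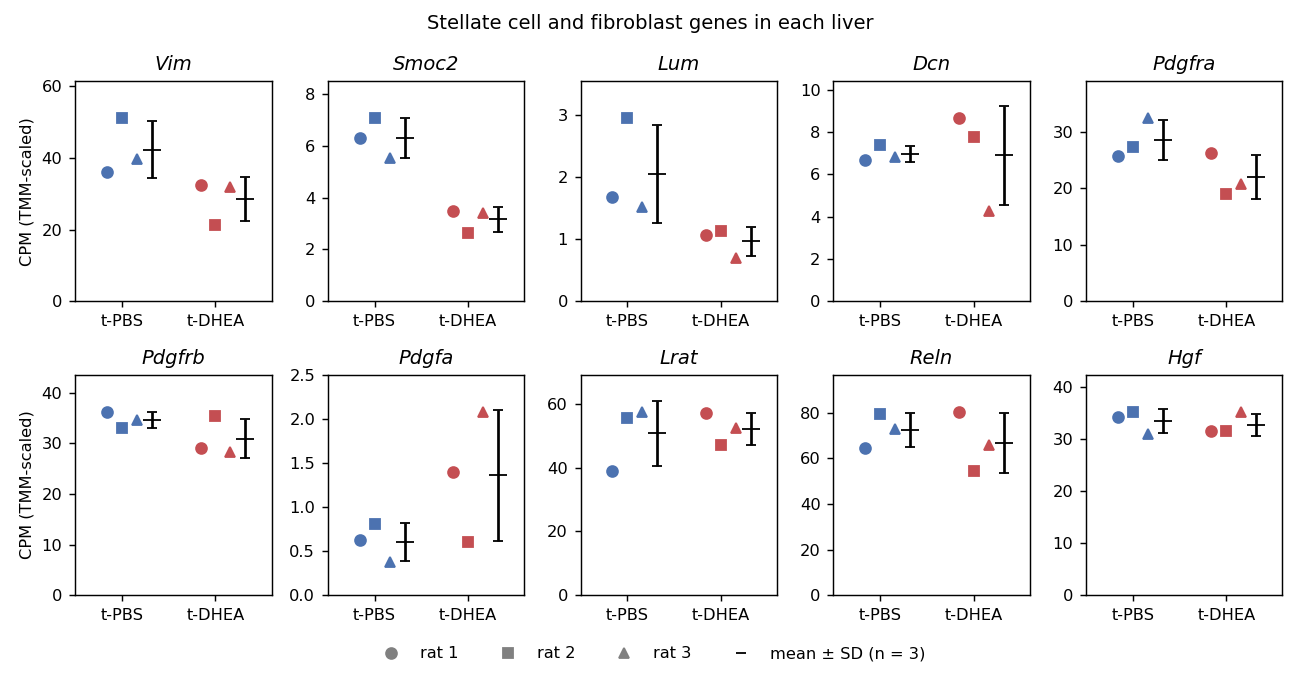
Expression of each of the 10 genes in each liver, in CPM scaled by TMM factors on a linear axis from 0, with t-PBS livers in blue, t-DHEA livers in red, and the mean ± SD (n = 3) beside each group. Vim, Smoc2 and Lum are lower in every t-DHEA liver than in every t-PBS liver, and the groups overlap for the other 7 genes.

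Vim, Smoc2 and Lum did not overlap between the groups, and all 3 were lower in t-DHEA. Over all genes tested the groups did not overlap for 10.1%, with t-DHEA lower in 5.42% and higher in 4.66%. The exact two-sided permutation test gave p = 0.1 for each of these 3 genes, the smallest value that 3 livers against 3 allow.

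Smoc2, a secreted calcium-binding protein of the SPARC family that is found in the extracellular matrix, lies on chromosome 1 of Rnor_6.0 from 56242346 to 56374120 and had the lowest p of the 10 genes. It had 90, 96 and 73 counts in t-PBS against 42, 35 and 44 in t-DHEA. In CPM the highest t-DHEA liver, at 3.47, was below the lowest t-PBS liver, at 5.51, and the t-PBS livers reached up to 7.08. Expression was 6.30 ± 0.785 CPM (SD, n = 3) in t-PBS and 3.16 ± 0.472 CPM (SD, n = 3) in t-DHEA livers, 1.99-fold higher in t-PBS. The log2 fold change was -0.995 (SE 0.19, QL p of 0.000632, and 0.687 after Benjamini-Hochberg adjustment of the edgeR p). Under other tools the adjusted p of Smoc2 was 0.131 (DESeq2) and 0.00899 (likelihood-ratio test of edgeR), and it ran from 0.00899 to 0.998 over all settings tried. Smoc2 kept its call whichever liver was left out, in 6 of 6 fits, with log2 fold changes from -1.08 to -0.87, the latter without t-DHEA rat 2.

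Vim encodes vimentin, the intermediate filament of mesenchymal cells, which endothelial cells and leukocytes make as well. It lies on chromosome 17 from 80882666 to 80891212. The counts of Vim were 515, 694 and 525 in t-PBS against 394, 285 and 411 in t-DHEA. The highest value was that of t-PBS rat 2 and the lowest that of t-DHEA rat 2, and the other 4 livers lay closer together, between 31.8 and 39.6 CPM. The means were 42.3 ± 7.89 CPM (SD, n = 3) in t-PBS and 28.5 ± 6.26 CPM (SD, n = 3) in t-DHEA livers. This was a log2 fold change of -0.57 (SE 0.19, QL p of 0.0145, and 0.888 after Benjamini-Hochberg adjustment of the edgeR p). Without t-PBS rat 2 the log2 fold change of Vim was -0.41 (QL p of 0.0603), so that the call was lost. Without t-DHEA rat 2 it was -0.39 (QL p of 0.0395), and the call was kept.

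Lum and Dcn encode lumican and decorin, small leucine-rich proteoglycans that bind collagen fibrils and control their diameter. They are neighbours on chromosome 7, Dcn from 38742051 to 38782323 and Lum from 38819771 to 38826862, with 37447 bases between them. Lum had 24, 40 and 20 counts in t-PBS against 13, 15 and 9 in t-DHEA. Each t-DHEA liver was below each t-PBS liver, but these were few counts, and t-PBS rat 2 was well above the other livers of its group. Expression fell from 2.05 ± 0.786 CPM (SD, n = 3) in t-PBS to 0.964 ± 0.234 CPM (SD, n = 3) in t-DHEA, a log2 fold change of -1.08 (SE 0.37, QL p of 0.0177, and 0.900 after Benjamini-Hochberg adjustment of the edgeR p). The call was lost without t-PBS rat 2, at a log2 fold change of -0.72 (QL p of 0.0899). It was also lost without t-DHEA rat 3, at a log2 fold change of -0.89 (QL p of 0.0651).

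Dcn had 95, 100 and 90 counts in t-PBS against 105, 104 and 55 in t-DHEA. The t-PBS livers were close together, and the t-DHEA livers lay on both sides of them. The means were 6.94 ± 0.380 CPM (SD, n = 3) in t-PBS and 6.90 ± 2.34 CPM (SD, n = 3) in t-DHEA, a log2 fold change of -0.011 (SE 0.24, QL p of 0.966). Without t-DHEA rat 3 the log2 fold change of Dcn was 0.25. Within a liver, where no scaling between libraries enters, Lum had 25.3, 40.0 and 22.2 counts per 100 counts of Dcn in t-PBS against 12.4, 14.4 and 16.4 in t-DHEA. This ratio was lower in each t-DHEA liver than in each t-PBS liver. It was formed after the values had been seen, and is given without a test.

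PDGF receptor alpha, encoded by Pdgfra, marks quiescent stellate cells and fibroblasts and binds the A chain of PDGF as well as other chains. Pdgfra lies on chromosome 14 from 35527927 to 35581031. It had 368, 370 and 431 counts in t-PBS against 319, 254 and 269 in t-DHEA. In CPM t-DHEA rat 1, with 26.3, was above t-PBS rat 1, with 25.8, so that the groups overlapped by 1 liver on each side. The means were 28.5 ± 3.54 CPM (SD, n = 3) in t-PBS and 22.0 ± 3.83 CPM (SD, n = 3) in t-DHEA livers. The log2 fold change was -0.37 (SE 0.15, QL p of 0.0335, and 0.957 after Benjamini-Hochberg adjustment of the edgeR p), and the exact permutation p was 0.2. This was the least stable of the 4 calls, since it held in 3 of the 6 fits that left out 1 liver. Its QL p was 0.126 with t-PBS rat 3 left out, 0.113 with t-DHEA rat 2 left out and 0.103 with t-DHEA rat 3 left out.

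Pdgfrb, on chromosome 18 from 56364620 to 56406381, encodes PDGF receptor beta, the receptor through which the B chain drives stellate cell proliferation. It had 518, 449 and 458 counts in t-PBS against 353, 474 and 366 in t-DHEA. Rats 1 and 3 of t-DHEA were the lowest of the 6 livers, while t-DHEA rat 2 was within the t-PBS range. Its log2 fold change was -0.16 (SE 0.12, QL p of 0.195). Without t-DHEA rat 2 the log2 fold change of Pdgfrb was -0.27 (QL p of 0.0385), which met the criteria. The ratio of Pdgfra to Pdgfrb within a liver overlapped between the groups, from 71.0 to 94.1 counts of Pdgfra per 100 of Pdgfrb in t-PBS and from 53.6 to 90.4 in t-DHEA.

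Pdgfa encodes the A chain of PDGF, a ligand of PDGF receptor alpha. It lies on chromosome 12 from 17734133 to 17755285 and was by FPKM the least abundant of the 10 genes. It had 9, 11 and 5 counts in t-PBS against 17, 8 and 27 in t-DHEA. Rats 1 and 3 of t-DHEA had the highest values, and t-DHEA rat 2 lay within the t-PBS range. The means were 0.606 ± 0.218 CPM (SD, n = 3) in t-PBS and 1.36 ± 0.745 CPM (SD, n = 3) in t-DHEA, a log2 fold change of 1.15 (SE 0.51, QL p of 0.0512). Pdgfa thus missed the criteria by a small margin. It met them without t-DHEA rat 2, where the log2 fold change of Pdgfa was 1.51 and the QL p 0.00852, with the likelihood-ratio test of edgeR (p of 0.0272) and with no filter on low counts (p of 0.0491). The mean of the ligand was thus above, and that of its receptor below, the t-PBS mean. Per 100 counts of Pdgfra there were 2.45, 2.97 and 1.16 counts of Pdgfa in t-PBS against 5.33, 3.15 and 10.04 in t-DHEA. These ratios did not overlap between the groups, but the pair was chosen after the values had been seen. The margin was narrow, 3.15 in t-DHEA rat 2 against 2.97 in t-PBS rat 2. It rested on 8 and 11 counts of Pdgfa, so that counting error alone could close it.

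The other 3 genes, Lrat, Reln and Hgf, did not pass the criteria, and their groups overlapped. For the 6 genes not called, Dcn, Pdgfrb and Pdgfa included, the exact permutation p was between 0.3 and 1. Lrat encodes lecithin retinol acyltransferase, the enzyme that esterifies retinol for storage, and lies on chromosome 2 from 181896305 to 181905300. It had 556, 755 and 764 counts in t-PBS against 691, 630 and 681 in t-DHEA. All t-DHEA livers were inside the t-PBS range, between the low value of t-PBS rat 1 and the high value of t-PBS rat 3. The log2 fold change of Lrat was 0.042 (SE 0.15, QL p of 0.792).

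Reln encodes reelin, a large secreted glycoprotein of stellate cells in liver, and lies on chromosome 4 from 9347528 to 9773670. The counts of Reln were 924, 1077 and 969 in t-PBS against 976, 726 and 854 in t-DHEA. After scaling, t-DHEA rat 1 was the highest and t-DHEA rat 2 the lowest of all 6 livers. Reln had a log2 fold change of -0.11 (SE 0.15, QL p of 0.461), and of 0.019 without t-DHEA rat 2. Hgf, hepatocyte growth factor, is a mitogen made by stellate cells that acts on hepatocytes through the receptor Met, and lies on chromosome 4 from 15433295 to 15505362. It had 487, 478 and 410 counts in t-PBS against 382, 420 and 454 in t-DHEA. Hgf was the most even of the 10 genes, with its highest liver only 1.14 times its lowest in CPM. Its log2 fold change was -0.034 (SE 0.10, QL p of 0.752).

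**Figure D2:**
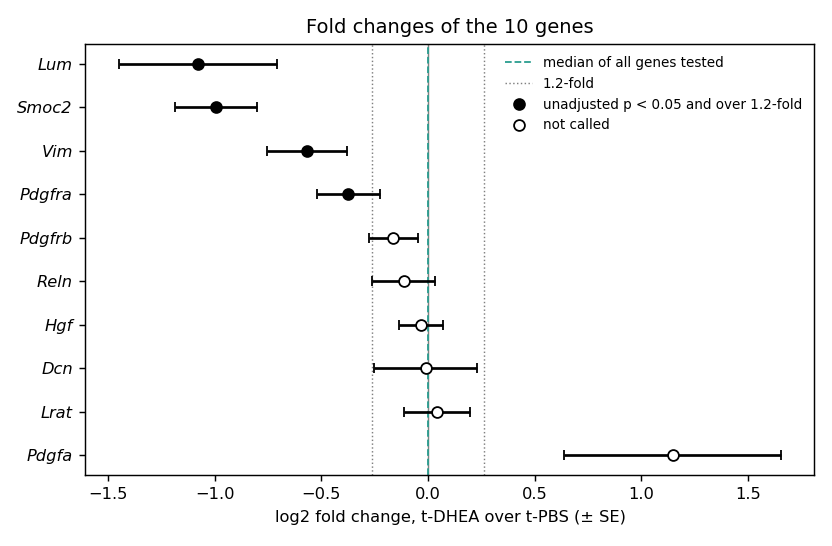
Log2 fold change of t-DHEA over t-PBS livers for each of the 10 genes from edgeR's quasi-likelihood fit (3 against 3 livers), with bars of 1 standard error, filled points for genes that met the criteria, dotted lines at a fold-change of 1.2 and a dashed line at the median of all genes tested. Lum, Smoc2, Vim and Pdgfra are the filled points, from -1.08 to -0.37, and Pdgfa, at 1.15, has the widest error bar.

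Set against Lrat within each liver, Smoc2 and Vim were also lower in t-DHEA. Smoc2 had 16.2, 12.7 and 9.56 counts per 100 counts of Lrat in t-PBS against 6.08, 5.56 and 6.46 in t-DHEA. Vim had 92.6, 91.9 and 68.7 counts per 100 counts of Lrat in t-PBS against 57.0, 45.2 and 60.4 in t-DHEA. Neither ratio overlapped between the groups. Both were formed after the values had been seen and are descriptions. The summed expression of the 10 genes was between 251 and 300 CPM in t-PBS and between 221 and 272 CPM in t-DHEA livers, so that the sums overlapped. The liver of t-DHEA rat 2 was the lowest of the 6 for 4 of the genes and the highest for none, and that of t-PBS rat 2 was the highest for 4 and the lowest for none.

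Promoter sequences are shown for 3 of the genes that fell and for Lrat, which did not pass the criteria, so that genes on both sides of the criteria can be read together. Of the 10 genes 7 had an entry in the RefSeq promoter table (build GRCr8). Each sequence is the 250 bases before the annotated start, 5′ to 3′ on the strand of the gene. Capitals mark CCAAT or its reverse ATTGG, the box bound by NF-Y, and TATAAA, the TATA box. The Vim promoter is chr17:81577011-81577260 on the plus strand, that of Lum is chr7:34245456-34245705 on the plus strand, that of Pdgfra is chr14:33408517-33408766 on the minus strand and that of Lrat is chr2:170571213-170571462 on the minus strand.
Vim: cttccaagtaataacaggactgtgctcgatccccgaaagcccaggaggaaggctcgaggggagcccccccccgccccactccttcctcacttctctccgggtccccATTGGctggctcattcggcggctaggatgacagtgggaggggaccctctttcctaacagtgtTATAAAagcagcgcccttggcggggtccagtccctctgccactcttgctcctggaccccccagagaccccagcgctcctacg
Lum: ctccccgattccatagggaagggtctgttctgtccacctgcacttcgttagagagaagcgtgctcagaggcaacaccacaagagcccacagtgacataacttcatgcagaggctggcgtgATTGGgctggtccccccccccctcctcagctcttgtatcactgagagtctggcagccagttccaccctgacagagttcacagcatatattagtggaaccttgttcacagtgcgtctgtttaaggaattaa
Pdgfra: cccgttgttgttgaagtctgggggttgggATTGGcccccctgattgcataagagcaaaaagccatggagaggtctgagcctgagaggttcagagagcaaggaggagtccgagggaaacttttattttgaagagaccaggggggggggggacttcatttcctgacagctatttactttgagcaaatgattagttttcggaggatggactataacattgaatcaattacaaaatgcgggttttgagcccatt
Lrat: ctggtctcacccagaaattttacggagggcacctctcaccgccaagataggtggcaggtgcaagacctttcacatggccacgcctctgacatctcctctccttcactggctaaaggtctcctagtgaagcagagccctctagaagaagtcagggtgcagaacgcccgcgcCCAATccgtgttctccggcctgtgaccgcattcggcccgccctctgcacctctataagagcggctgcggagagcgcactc

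A CCAAT or ATTGG was found in 5 of the 7 promoters and in 34.0% of 33465 promoters of the same length. In the 4 sequences shown it began 144 bases before the start in Vim, 130 in Lum, 221 in Pdgfra and 80 in Lrat. Both the genes shown that fell and Lrat thus held it. Of the other genes not called, Hgf held it, whereas Reln and Pdgfa lacked it. Smoc2, Dcn and Pdgfrb had no entry. TATAAA or TTTATA was found in 1 of the 7, in Vim, 82 bases before the start, and in 12.9% of all promoters. GGGCGG or CCGCCC, the GC box of Sp1, was found in 4 of the 7 and in 30.5% of all. TGAGTCA or TGACTCA, the AP-1 site, was found in none of the 7 and in 4.05% of all. No motif contains another, both strands were searched, and a match of letters is not a bound site.

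Genes with roles close to those of the 10 were counted from lists. Of 19 other stellate cell markers 1 fell, none rose and 18 did not pass (median log2 fold change -0.15). The 1 that fell was Adamtsl2, a secreted protein that binds latent transforming growth factor beta binding protein. Adamtsl2 had 206, 228 and 150 counts in t-PBS against 57, 115 and 88 in t-DHEA. Its log2 fold change was -1.08 (SE 0.23, QL p of 0.00115), and the call held whichever liver was left out. The count of 1 was 2 with t-PBS rat 3, t-DHEA rat 1, t-DHEA rat 2 or t-DHEA rat 3 left out, and 1 marker rose with t-DHEA rat 2 left out. The summed expression of the 19 markers overlapped, from 526 to 570 CPM in t-PBS and from 499 to 619 CPM in t-DHEA livers. For this list the share called was close to the 4.95% of all genes.

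Of 20 genes of myofibroblasts and of stellate cell activation 15 were tested, of which 7 fell and 1 rose (median log2 fold change -0.46). The 7 that fell were Tgfb1, Lox, Timp1, Col1a1, Sparc, Col3a1 and Loxl1. Tgfb1, the cytokine that activates stellate cells, had 181, 168 and 163 counts in t-PBS against 99, 108 and 130 in t-DHEA. Tgfb1 had a log2 fold change of -0.51 (QL p of 0.00419). Among the fibrillar collagens, Col1a1 fell by 0.88 and Col3a1 fell by 0.40 on the log2 scale. Col1a2 was listed at 0 in all 6 livers, where Col1a1 had between 178 and 679 counts. The reason for this 0 was not tested, and it is not read as absence of expression. Lox and Loxl1, the enzymes that crosslink collagen, fell by 0.85 and 0.78, and Timp1, an inhibitor of matrix metalloproteinases, fell by 0.90. Without t-PBS rat 2 the count of 7 was 3, namely Tgfb1, Lox and Timp1, and without t-DHEA rat 2 it was 4, without Sparc, Col3a1 and Loxl1. Loxl1 was called in 2 of 6 fits with 1 liver left out, namely with t-PBS rat 3 or t-DHEA rat 3 left out. Tagln, an actin-binding protein of contractile cells, rose by a log2 fold change of 1.06 (QL p of 2.95e-05), but its span overlaps that of Sidt2 and the strand of the counts is not known. Acta2, the smooth muscle actin by which myofibroblasts are recognised, had 65, 87 and 61 counts in t-PBS against 72, 56 and 38 in t-DHEA (QL p of 0.369). Genes for collagen and for its crosslinking enzymes were thus among those that fell, whereas Acta2 did not pass.

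The relatives of Lum and Dcn and those of Smoc2 were counted in the same way. Of 11 other small leucine-rich proteoglycans 3 were tested, and 2 of them fell. Fmod, fibromodulin, had 74, 37 and 32 counts in t-PBS against 9, 7 and 18 in t-DHEA. Its log2 fold change was -1.95 (SE 0.44, QL p of 0.00167), and the call held whichever liver was left out. Bgn, biglycan, fell by 0.27 in log2 units (QL p of 0.0300), a call that held in 2 of 6 fits with 1 liver left out and was lost with t-PBS rat 2, t-PBS rat 3, t-DHEA rat 1 or t-DHEA rat 2 left out. Prelp had a log2 fold change of -0.14 (QL p of 0.187), and 6 others were listed at 0 in every liver. Of 6 tested relatives of Smoc2 in the SPARC and SMOC family 3 fell and 3 did not pass. Sparc fell by 0.28, Sparcl1 by 0.58 and Spock2 by 1.68 on the log2 scale, while Smoc1, the closest relative, had between 825 and 881 counts in t-PBS and between 686 and 852 in t-DHEA livers and did not pass. The count of 3 was 4 without t-DHEA rat 1 and 2 without any other liver. Sparcl1 was no longer called with t-PBS rat 1, t-PBS rat 3 or t-DHEA rat 3 left out, and Spock2 with t-PBS rat 1 left out. Of 9 tested intermediate filament genes other than Vim 2 fell, the keratins Krt7 and Krt19, with log2 fold changes of -2.16 and -1.31. Krt7 was no longer called with t-PBS rat 3 or t-DHEA rat 1 left out, where the count of 2 was 1. With t-DHEA rat 3 left out its log2 fold change was -4.28.

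**Figure D3:**
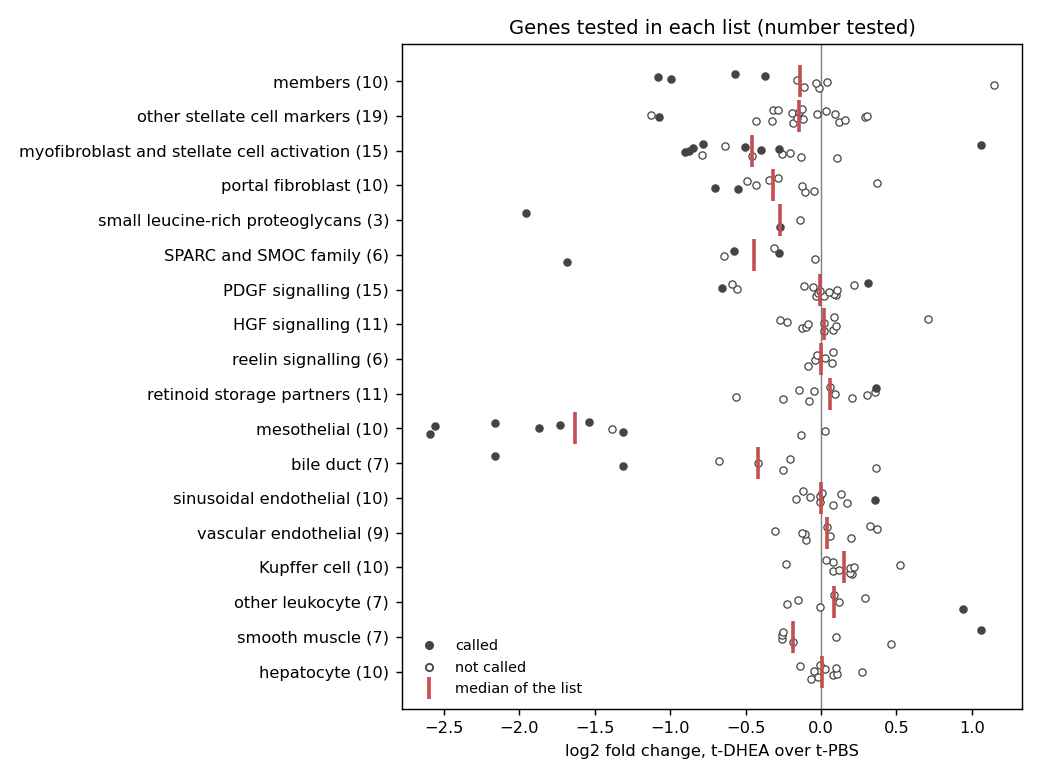
Log2 fold change of t-DHEA over t-PBS livers for every tested gene of each list, with filled points for genes that met the criteria, open points for those that did not and a red bar at the median of the list. The mesothelial list has the lowest median, -1.63, followed by the activation, SPARC and SMOC, and bile duct lists, and the hepatocyte, reelin, PDGF and HGF lists lie near 0.

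The signalling partners of the other members showed few calls. Of 15 tested genes of PDGF signalling 1 fell and 1 rose (median log2 fold change -0.0056). Pdgfd, the D chain of PDGF, had 22, 31 and 28 counts in t-PBS and 16 in each t-DHEA liver, a log2 fold change of -0.66 (QL p of 0.0456). The call of Pdgfd held in 1 of the 6 fits that left out 1 liver, that without t-PBS rat 1, and was lost without any other. Pik3r1, a regulatory subunit of phosphoinositide 3-kinase, rose by a log2 fold change of 0.31 (QL p of 0.0301), and was no longer called with t-PBS rat 2 or t-DHEA rat 1 left out. Of 11 tested genes of HGF signalling none fell or rose, with a median of 0.017, and 1 rose with t-PBS rat 1 left out. The lowest p there were those of Spint1, an inhibitor of the HGF activator, at 0.176, and of the urokinase gene Plau, at 0.232. Of 6 tested genes of reelin signalling none fell or rose, with a median of -0.0023. Pafah1b1, at 0.411, and Dab1, an adaptor of the reelin receptors, at 0.771, had the lowest p in that list. Of 11 tested partners of Lrat in retinoid storage none fell and 1 rose, with a median of 0.061. That gene was Dgat2, an acyltransferase mostly known for triglyceride synthesis, with a log2 fold change of 0.36 (QL p of 0.0296). Dgat2 was no longer called with t-PBS rat 1, t-PBS rat 2 or t-DHEA rat 1 left out, and the count of 1 was 2 with t-PBS rat 3 and 3 with t-DHEA rat 2 left out.

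Of 10 tested portal fibroblast markers 2 fell and none rose (median log2 fold change -0.32). Igfbp3, an insulin-like growth factor binding protein, had 1592, 1708 and 1326 counts in t-PBS against 681, 1016 and 969 in t-DHEA. The log2 fold change of Igfbp3 was -0.70 (QL p of 0.000723), and the call held whichever liver was left out. Mgp, matrix Gla protein, fell by 0.55 in log2 units (QL p of 0.0146). Mgp was no longer called with t-PBS rat 2 or t-DHEA rat 3 left out, and the count of 2 was then 1.

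Markers of other cell types were counted in the same way. Of 10 tested mesothelial markers 7 fell and none rose (median log2 fold change -1.63), and the count was 5 with t-PBS rat 3 or t-DHEA rat 1 left out and 7 with t-DHEA rat 2 left out. In that last fit 1 marker rose, Gpm6a, with a log2 fold change of 0.45 (QL p of 0.0139), against -0.13 (QL p of 0.865) with all 6 livers. The 7 with all 6 livers were Upk3b, Muc16, Msln, Krt19, Cldn15, Krt7 and Upk1b. Upk1b was no longer called with t-PBS rat 3, t-DHEA rat 1 or t-DHEA rat 2 left out. Without t-DHEA rat 2 the 7 held Lrrn4 in its place, which was not called with all 6 livers (QL p of 0.0717). Upk3b, a uroplakin, had 61, 62 and 31 counts in t-PBS against 7, 4 and 13 in t-DHEA. Msln, mesothelin, had 192, 198 and 217 counts in t-PBS against 42, 15 and 98 in t-DHEA. The summed expression of the mesothelial list was between 49.9 and 54.8 CPM in t-PBS livers, and 32.4, 7.71 and 38.2 CPM in the t-DHEA livers. In t-DHEA rat 2 the markers Krt7, Lrrn4, Wt1 and Bnc1 were at 0 counts. Wt1 and Bnc1 were low in every liver, with at most 10 and 6 counts, and did not pass the filter. Bnc1 was at 0 in t-PBS rat 3 as well. Without t-DHEA rat 2 the log2 fold change was -0.87 for Smoc2, -0.39 for Vim and -1.21 for Lum, all still called, and -0.27 for Pdgfra, no longer called. The part of the mesothelial markers in the result was not tested.

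Of 7 tested bile duct markers 2 fell, Krt7 and Krt19, which are also in the mesothelial list, and the summed expression was between 43.1 and 48.9 CPM in t-PBS and between 31.6 and 38.8 CPM in t-DHEA livers. The bile duct count of 2 was 1 with t-PBS rat 3 left out and 3 with t-DHEA rat 3 left out. Vimentin is made by endothelial cells and leukocytes too, and their markers were counted as well. Of 10 tested sinusoidal endothelial markers none fell and 1 rose, Kdr, of 9 vascular endothelial markers none was called, and of 10 Kupffer cell markers none was called. The lowest p among those not called were 0.359 for Flt4 in the sinusoidal list, 0.0591 for Esam and 0.237 for Sox17 in the vascular list, and 0.136 for Vsig4 and 0.158 for Cd68 in the Kupffer cell list. With 1 liver left out, at most 1 marker of each of these 3 lists fell and at most 1 rose. The summed expression of the sinusoidal endothelial list was between 352 and 524 CPM in t-PBS and between 489 and 493 CPM in t-DHEA livers. For other leukocytes 1 of 7 tested markers rose, S100a9, the next lowest p was 0.333 for Ptprc, and the sums were between 26.4 and 29.5 CPM and between 23.0 and 30.1 CPM. Kdr had a log2 fold change of 0.36 and S100a9 of 0.94, and each was called in 3 of the 6 fits that left out 1 liver. Kdr was no longer called with t-PBS rat 1, t-DHEA rat 1 or t-DHEA rat 2 left out, and S100a9 with t-PBS rat 2, t-PBS rat 3 or t-DHEA rat 1 left out. Among 7 tested smooth muscle markers Tagln alone passed, with Myh11 next at a p of 0.323, and the count of 1 was 2 with t-PBS rat 1 left out and 3 with t-DHEA rat 3 left out. Of 10 hepatocyte markers none was called (median log2 fold change 0.0093), and the lowest p were 0.379 for Ass1 and 0.473 for Pck1. Pck1 rose with t-DHEA rat 1 left out. Of 5 red blood cell genes 3 rose, Hba1, Hbb-b1 and Hbb, which have near-identical copies among which reads can be split, and their list summed to between 185 and 284 CPM in t-PBS and between 304 and 590 CPM in t-DHEA livers. Hbb was no longer called with t-PBS rat 2, t-PBS rat 3 or t-DHEA rat 2 left out. The part of the bile duct, endothelial, leukocyte and red blood cell markers in the result was not tested.

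**Figure D4:**
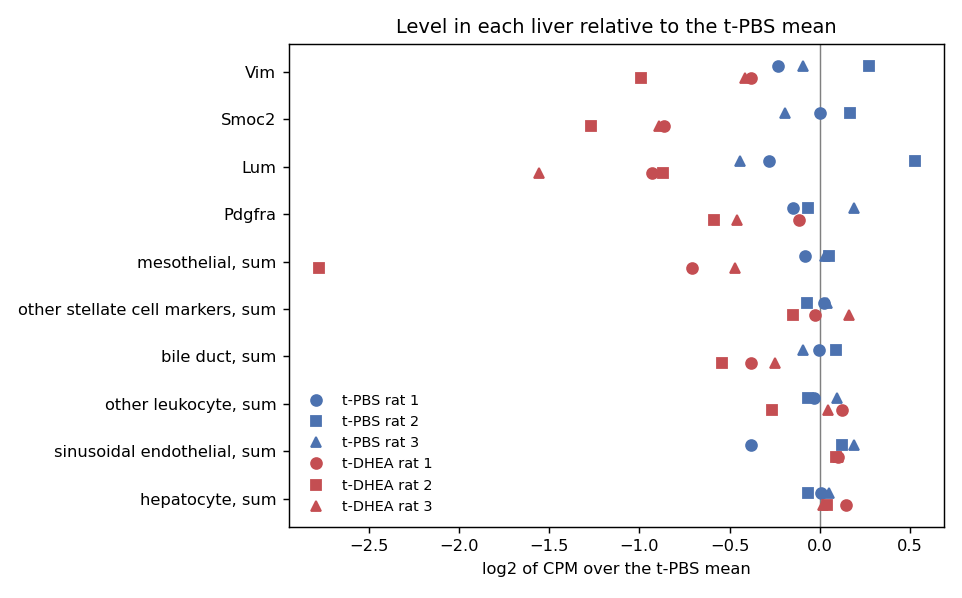
Level of the 4 genes that fell and the summed level of 6 marker lists in each liver, as the log2 of CPM over the mean of the t-PBS livers, with t-PBS in blue, t-DHEA in red and a marker shape for each rat. The mesothelial sum is below all t-PBS livers in each of the 3 t-DHEA rats, and that of t-DHEA rat 2 lies far to the left. Vim, Smoc2, Lum and the bile duct sum are also below all t-PBS livers in each of the 3 t-DHEA rats.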

How the data were processed

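Liver RNA of 3 t-PBS and 3 t-DHEA rats was sequenced as paired-end libraries. The authors filtered the reads with Seqtk, mapped them to Rnor_6.0 with HISAT2 2.0.4 and counted fragments per gene with StringTie 1.3.0. They deposited raw counts and FPKM in 1 table. The deposited FPKM of genes with 20 or more counts equal the count divided by a fixed length and the library total, within a relative difference of 4.4e-05. Which annotation release was used, and whether strand was counted, is not given in the sources used here. No span of the 10 genes overlaps that of another gene in the table, and 13770 of the 30957 genes had no count.

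The counts were filtered by the default rule of edgeR 4.0.16 (R 4.3.3), scaled by TMM factors (0.98 to 1.04) and compared between the 3 t-DHEA and 3 t-PBS livers in the two-sided quasi-likelihood test, without a covariate. Adjusted p are Benjamini-Hochberg values over the 12210 genes tested. CPM are counts scaled by the TMM-scaled library total, and standard errors were derived from the test statistic. The study states edgeR on FPKM, whereas the count test was used here. Of all pairs of libraries the most alike had a chi-square of 16.2 per degree of freedom between their counts, so none was a duplicate.

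Alternatives were the likelihood-ratio test of edgeR, DESeq2 1.42.0, RLE factors, library totals only, no filter, a mean of at least 10 counts, limma 3.58.1 on log2(FPKM + 0.1) and log2(FPKM + 1), rat number as a block, a fold-change above 1.5, and each liver left out. The members and the gene lists, written from general knowledge, were chosen with earlier results of these data known. Of each list the text names the genes called and the 2 with the lowest unadjusted p, except 1 gene that is not reported here. Des, Colec11, Ngfr, Gpm6a, Thy1, Gli1, Dpt, Gas6, Acta2, Col1a2, Prelp, Smoc1, Lrrn4, Wt1 and Bnc1 were named after their values were seen.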

Additional observations from a re-analysis of the deposited data

How the results depend on the processing

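Of the 604 genes called, 275 passed at a fold-change above 1.5, and of the 10 stellate cell and fibroblast genes 2 did, Smoc2 and Lum. The number of the 10 genes called ran from 2 to 5 over the 6 fits that left out 1 liver, and that of all genes from 514 to 747. With the rat number as a replicate block 539 genes and 4 of the 10 were called, and the block changed no call of the 10. Of the other genes named, the calls of Loxl1 and Pdgfd were lost and Esam was called under the block. Calls were also lost under DESeq2 (Loxl1, Pdgfd, Krt7, S100a9 and Hbb), the likelihood-ratio test (Bgn), no filter (Pdgfd), library totals only (Kdr and Hbb) and both limma fits (Pdgfd, Pik3r1, Kdr and Hbb). The numbers do not pair the rats, since no liver correlated best with its own number. The deviations of same-numbered livers from their group means correlated at -0.0571, -0.0592 and -0.0551. Over the other settings between 414 (DESeq2) and 776 (no filter) genes were called, and the 4 calls of Vim, Smoc2, Lum and Pdgfra held in all 9 of them. With limma on log2(FPKM + 1) the log2 fold changes of Lum and Smoc2 were -0.45 and -0.51, since a pseudocount understates the change of low genes. No gene named as called changed sign under the alternatives run, whereas Gpm6a, not called with all livers, had log2 fold changes from -0.72 to 0.45 over the fits that left out 1 liver and was called at the latter, without t-DHEA rat 2. The counts of Lum and Pdgfa, between 5 and 40 per liver, limit the precision of their fold changes, and 3 livers per group limit all tests. The cause of the losses was not tested.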
